A study of Mus musculus with 7 samples.

Results

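The SP family of zinc finger transcription factors was followed in mouse embryonic stem cells (mESCs) and mouse embryonic fibroblasts (MEFs). Sp1, Sp2, Sp3, Sp4, Sp5 and Sp8 were taken by gene symbol, which gave 6 of the 55484 genes listed, by a rule that uses no measured value, although earlier results of these data were known when the family was chosen. Of the 6, 5 had enough counts to be tested, and Sp5 did not. Sp6, Sp7 and Sp9, the other genes of the family, are described beside them.

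The study compared sequencing instruments on chromatin accessibility libraries of MEFs and mESCs, and used RNA-seq to ask which candidate factors each cell type expresses. The RNA-seq libraries came from 4 MEF and 3 mESC samples, all of a C57/Bl6 background, with no treatment or passage in the sample labels and no age among the sample characteristics. MEFs are connective tissue cells cultured from embryos, whereas mESCs keep the pluripotent state of the early embryo in culture. A sort for THY1+ MEFs and for THY1-/SSEA1+/EPCAM+ mESCs is described for the chromatin libraries, and the sources used here do not say whether it was also done for RNA.

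SP factors bind GC-rich sites, of which the GC box is the best known, through zinc fingers near the C-terminal end of the protein. Sp1 and Sp3 are found in most cells and share much of their binding, Sp1 as an activator and Sp3 as an activator or repressor. Sp2 is tied to NF-Y at CCAAT sites, Sp4 is best known from neurons, Sp5 is a target of WNT signalling in the early embryo and in pluripotent cells, and Sp8 patterns the limb and the forebrain.

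Sp1 and Sp2 were higher in mESCs, by 2.09-fold and 1.92-fold, and no tested member was lower. Sp1 was above every MEF library in all 3 mESC libraries. The cell types overlapped in Sp2, whose log2 fold change was 0.94 with all libraries and 0.50 without mESC Y2. Its call was lost without mESC Y2, and also without MEF O1, O3 or O4. Sp3, Sp4 and Sp8 did not pass the test, and Sp5 was close to absent, with 29 counts over the mESC libraries and 2 over the MEF libraries.

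The sequence before the start sites is shown for the members that the results turn on, because GC boxes are the sites that the family itself binds. Promoters were taken from RefSeq on GRCm38.p6, and the 6 members matched 11 start sites. Each line is a stretch of 100 bases on the strand of the gene, with GC boxes (GGGCGG, or CCGCCC where the box lies on the other strand) in capitals. Each stretch was chosen to hold the most boxes, within 250 bases before the start and outside exons of the gene. Not every start of Sp2 and Sp8 is shown. The stretch of Sp1 lies after the GENCODE M21 start of the gene, chr15:102406143, because the RefSeq start used here is further downstream. The stretches of the second starts of Sp2 and Sp3 also lie inside the GENCODE span of their gene. For Sp1 the stretch is chr15:102406216-102406315 (+), for the second start of Sp2 it is chr11:96977712-96977811 (-), for the first and second starts of Sp3 it is chr2:72980447-72980546 (-) and chr2:72979292-72979391 (-), for Sp4 it is chr12:118301441-118301540 (-), for Sp5 it is chr2:70474823-70474922 (+), and for the first start of Sp8 it is chr12:118846229-118846328 (+).
Sp1: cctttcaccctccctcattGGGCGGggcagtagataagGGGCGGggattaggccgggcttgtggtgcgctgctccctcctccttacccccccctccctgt
Sp2 second start: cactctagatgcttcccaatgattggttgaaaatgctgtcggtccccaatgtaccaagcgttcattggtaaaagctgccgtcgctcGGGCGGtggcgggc
Sp3 first start: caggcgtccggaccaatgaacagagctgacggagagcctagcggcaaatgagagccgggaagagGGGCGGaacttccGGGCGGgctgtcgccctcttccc
Sp3 second start: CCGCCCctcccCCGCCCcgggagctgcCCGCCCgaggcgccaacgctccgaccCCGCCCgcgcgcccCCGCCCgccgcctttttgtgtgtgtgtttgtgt
Sp4: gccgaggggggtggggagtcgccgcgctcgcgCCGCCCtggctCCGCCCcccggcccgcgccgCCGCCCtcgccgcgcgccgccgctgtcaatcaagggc
Sp5: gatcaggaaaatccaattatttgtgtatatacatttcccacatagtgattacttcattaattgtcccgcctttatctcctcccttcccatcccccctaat
Sp8 first start: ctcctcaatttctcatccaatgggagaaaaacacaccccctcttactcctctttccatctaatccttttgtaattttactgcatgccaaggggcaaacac

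A GC box on either strand lay in the 250 bases before 6 of the 11 member starts, against 32.7% of all 32851 RefSeq promoters in windows of the same length. At least 2 boxes were found before 4 of the 11 starts, against 16.7% of all promoters. The window of Sp1 held 4 boxes, those of Sp3 held 2 and 5, and that of Sp4 held 4. At least 5 boxes, as at the second start of Sp3, were found in 1.93% of all promoters. The windows of Sp5 and of the first start of Sp8 held none.

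**Figure D1:**
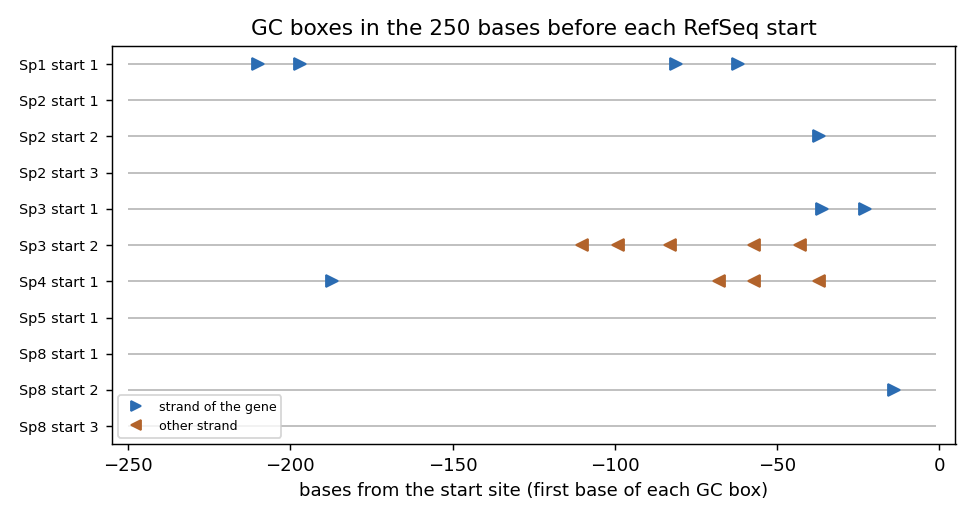
Position of each GC box in the 250 bases before each RefSeq start of the 6 members. The x axis gives bases from the start site, each line is a start, and the arrowheads give the strand of the box. Boxes lie before Sp1, Sp3 and Sp4 in numbers of 2 to 5, and 1 lies before the second start of Sp2 and of Sp8. None lies before Sp5 or the other starts of Sp2 and Sp8.

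The members also differed in base composition. The window of Sp4 was 80% G and C, above 98.8% of all promoters, and that of the second start of Sp3 was 77.2%. The window of Sp5 was 46%, below the median of 52.4% over all promoters, and the first start of Sp8 had 40.8%. CCAAT on either strand was found before 7 of the 11 starts, against 33.8% of all promoters, and 6 copies stood before the second start of Sp2. The letters TATAAA, found in 12.4% of promoters, were present in the members only before the first start of Sp8, in 2 copies. The count table does not separate starts of a gene, so the level of one start was not tested.

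The members lie at 6 places on 4 chromosomes (GENCODE M21 on GRCm38). Sp1 is at chr15:102406143-102436404 (+), Sp2 at chr11:96953341-96982959 (-), Sp3 at chr2:72936427-72980446 (-), Sp4 at chr12:118234933-118301440 (-), Sp5 at chr2:70474923-70477729 (+) and Sp8 at chr12:118846329-118852576 (+). A member and another gene of the family are often close. Sp7 is 39.3 kb from Sp1 with no gene between them, Sp6 is 30.6 kb from Sp2, Sp9 is 291 kb from Sp3, and Sp8 is 545 kb from Sp4.

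The libraries held 6528643 to 11441278 counts, and 3 counts, taken as the floor of a library, stood for 0.289 to 0.479 CPM. CPM is the count set to a common library size, here after TMM scaling, which sets the libraries equal over most genes. Of 16580 genes tested, 7938 differed between the cell types (47.9%), with 22.8% higher and 25% lower in mESCs, so a call for a single gene is common here. The calls are edgeR's quasi-likelihood test at a Benjamini-Hochberg adjusted p of 0.05. Scaling by library totals alone moved the median difference of all genes by 0.29 on the log2 scale towards mESCs and the share of calls that were higher from 47.7% to 61.0%. The summed level of 10 pluripotency markers ran from 3388 to 3657 CPM in mESCs and from 43.1 to 47.6 in MEFs, and that of 10 fibroblast markers from 25586 to 41403 CPM in MEFs and from 179 to 220 in mESCs. The extraction text in the labels speaks of blood stem cells of young and aged mice, which the cell type labels do not. The count columns carry a letter, O in all MEF columns and Y in all mESC columns, that the labels do not explain and that cannot be told apart from cell type. In these libraries, 10 markers of blood stem cells summed to 5.48 to 19.3 CPM over all libraries. The sums in MEFs and mESCs were 104 to 206 and 25.0 to 35.1 CPM for 6 neural progenitor markers, 120 to 150 and 116 to 142 for 5 of surface ectoderm, 9.45 to 13.2 and 25.4 to 44.5 for 4 of endothelium, 53.1 to 83.2 and 45.4 to 60.3 for 4 of osteoblasts, of which Bglap was at 0 throughout, and 27.4 to 40.3 and 28.0 to 40.8 for 6 of extraembryonic cells. In each mESC library, Pecam1 held most of the endothelial counts and Alpl most of the osteoblast counts, so these sums rest there on single genes. Runx2 and Ibsp, also in the osteoblast list, held at most 5 counts in any mESC library and were lower there than in every MEF library. The other endothelial markers, Cdh5, Kdr and Tek, overlapped between the cell types. The study describes its transcriptional samples as biological replicates and names fewer MEF samples than there are MEF count columns. The labels do not say whether the libraries of a cell type came from separate cultures, so p-values measure the spread between these libraries, which may be technical. In bulk RNA, a change in every cell and a change in the share of cells that express a gene cannot be told apart.

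Sp1, the founding member and a general activator at GC boxes, held 400, 436, 446 and 316 counts in MEF libraries O1 to O4 and 1045, 1086 and 763 counts in mESC libraries Y1 to Y3. In CPM, Sp1 stood at 38.6, 66.8, 53.7 and 50.5 in MEFs and at 113.8, 124.0 and 90.4 in mESCs. The mESC libraries all lay above the MEF libraries, which was so, in one direction or the other, for 52.1% of all tested genes. The means were 52.4 ± 11.6 CPM (SD, n = 4) and 109 ± 17.2 CPM (SD, n = 3). The log2 fold change was 1.06 (SE 0.202, 95% interval 0.62 to 1.51, adjusted p = 0.00132 by edgeR), above that of 80.7% of tested genes. The exact permutation test gave a two-sided p of 0.0286, the smallest that this design allows. Leaving out any single library gave a log2 fold change of 0.93 to 1.196, and the call held each time. A change of more than 2-fold was not shown (adjusted p = 0.442 by edgeR for a test against that fold).

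Sp2, whose binding is mostly tied to NF-Y, held 255, 206, 211 and 86 counts in MEF O1 to O4 and 340, 613 and 259 counts in mESC Y1 to Y3. In CPM, Sp2 stood at 24.6, 31.6, 25.4 and 13.7 in MEFs and at 37.0, 69.98 and 30.7 in mESCs. The groups overlapped, with mESC Y3 just under MEF O2 and mESC Y2 far above the rest. The means were 23.8 ± 7.40 CPM (SD, n = 4) and 45.9 ± 21.1 CPM (SD, n = 3). The log2 fold change was 0.94 (SE 0.328, 95% interval 0.22 to 1.67, adjusted p = 0.0348 by edgeR), and the exact permutation p was 0.0857. Without mESC Y2 the log2 fold change of Sp2 was 0.50 and the adjusted p by edgeR was 0.219. The call was also lost without MEF O1, O3 or O4, at log2 fold changes of 0.95, 0.97 and 0.75 and adjusted p of 0.0609, 0.0605 and 0.0711 by edgeR.

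Sp3, the close relative of Sp1 that can activate or repress, held 825, 369, 572 and 363 counts in MEF O1 to O4 and 769, 801 and 670 counts in mESC Y1 to Y3. In CPM, Sp3 stood at 79.5, 56.5, 68.9 and 58.0 in MEFs and at 83.7, 91.4 and 79.4 in mESCs. MEF O1 reached the level of the lowest mESC library, and the other MEF libraries were lower. The means were 65.7 ± 10.7 CPM (SD, n = 4) and 84.9 ± 6.08 CPM (SD, n = 3). The log2 fold change was 0.37 (SE 0.167, 95% interval -0.00142 to 0.74, adjusted p = 0.0936 by edgeR), and the exact permutation p was 0.0857. Sp3 passed the test without MEF O1 (0.47, adjusted p = 0.0420 by edgeR) and without scaling beyond library totals (0.65, adjusted p = 0.00656).

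Sp4, a factor of neurons, held 50, 56, 41 and 20 counts in MEF O1 to O4 and 24, 91 and 67 counts in mESC Y1 to Y3. In CPM, Sp4 stood at 4.82, 8.58, 4.94 and 3.20 in MEFs and at 2.61, 10.4 and 7.94 in mESCs. mESC Y1 was the lowest of the 7 libraries and mESC Y2 the highest. The means were 5.38 ± 2.27 CPM (SD, n = 4) in MEFs and 6.98 ± 3.98 CPM (SD, n = 3) in mESCs. The log2 fold change was 0.38 (SE 0.495, 95% interval -0.72 to 1.47, adjusted p = 0.571 by edgeR), so a 2-fold change in Sp4 was not detectable at this spread. It ran from -0.03 without mESC Y2 to 0.76 without mESC Y1.

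Sp8, which patterns limb and forebrain, held 107, 55, 89 and 39 counts in MEF O1 to O4 and 93, 85 and 67 counts in mESC Y1 to Y3. The means were 8.92 ± 2.05 CPM (SD, n = 4) in MEFs and 9.26 ± 1.16 CPM (SD, n = 3) in mESCs, and the ranges overlapped. The log2 fold change was 0.05 (SE 0.293, 95% interval -0.60 to 0.70, adjusted p = 0.908 by edgeR). Sp8 was thus measured in all 7 libraries above the floor, and its direction turned with the library left out.

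Sp5, the member that WNT signalling turns on, held 1, 0, 0 and 1 counts in MEF O1 to O4 and 0, 7 and 22 counts in mESC Y1 to Y3. Only mESC Y2 and Y3 were above the floor, at 0.799 and 2.61 CPM, and mESC Y1 was at 0 like MEF O2 and O3. Pooled over libraries, the ratio of mESC to MEF was 17.3 with a 95% interval of 4.38 to 150 that covers counting error only, and most of the counts came from mESC Y3. Sp5 was removed by the filter on low counts. The exact permutation p was 0.171. With no filter beyond 1 count, edgeR gave an adjusted p of 0.0137 over the 37943 genes then tested.

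**Figure D2:**
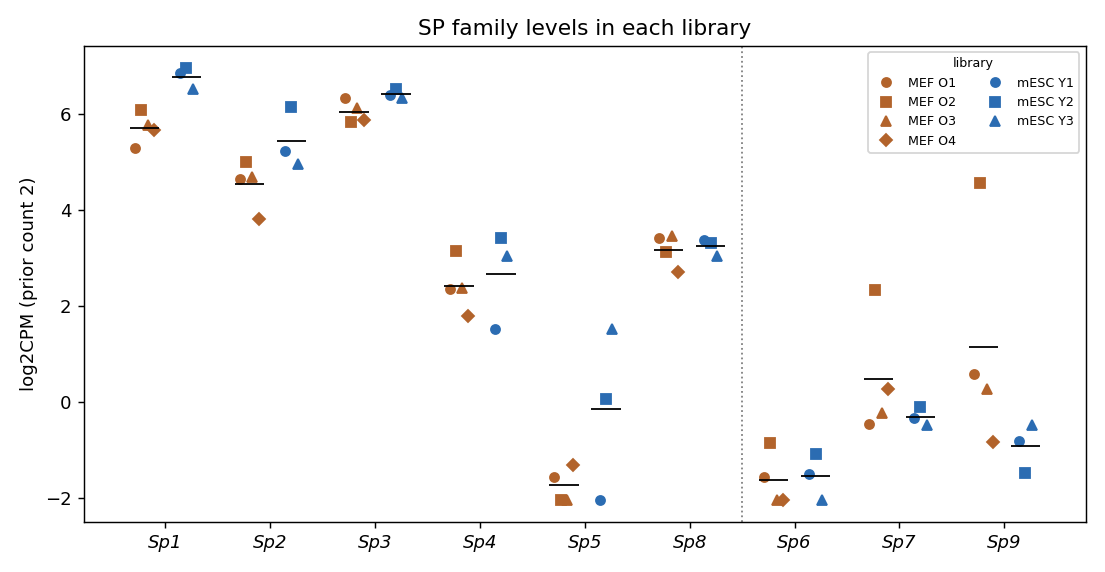
Level of each SP gene in each library, on the y axis as log2CPM with a prior count of 2, with the 6 members left of the dotted line and the other genes of the family right of it. Each point is a library and each short line is the mean of a cell type. The mESC points of Sp1 lie above all MEF points, Sp2 is highest in mESC Y2, and Sp7 and Sp9 are highest in MEF O2.

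The fold changes of the 5 tested members had a median of 0.38 on the log2 scale, against 0.04 over all tested genes, and 2 of 5 were called higher (22.8% of all genes were). Without scaling beyond library totals, the log2 fold changes were 1.35 for Sp1, 1.23 for Sp2, 0.65 for Sp3, 0.66 for Sp4 and 0.34 for Sp8. All 5 tested members were higher in mean CPM in mESCs, as were 51.4% of all tested genes. The study looked for factors with robust expression in mESCs and a higher level there than in MEFs. Read as a mean above 2 log2CPM in mESCs and above the mean in MEFs, this was met by 5 of the 6 members, all but Sp5, and by 40.6% of all tested genes. Sp8 did not meet it without MEF O4, nor Sp4 without mESC Y2. Asking for an adjusted p under 0.05 in place of a higher mean left 2 members, Sp1 and Sp2.

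**Figure D3:**
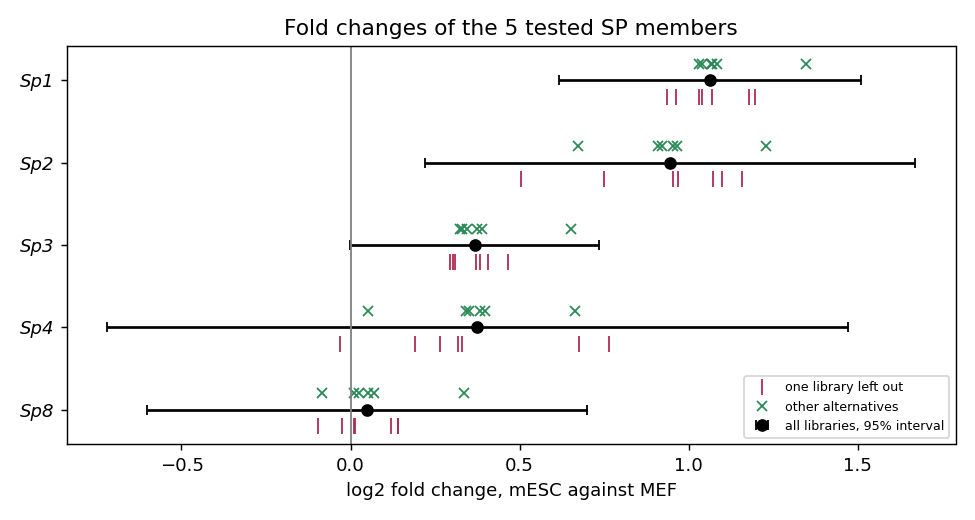
Log2 fold change of mESC against MEF for the 5 tested members on the x axis, with all libraries and its 95% interval (black), with each library left out (red) and under the other alternatives (green crosses). The interval of Sp1 runs from 0.62 to 1.51, and values on both sides of 0 are seen for Sp4 and Sp8.

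Levels of different members were compared per kilobase of annotated exon. In mESCs, Sp3 stood at 17.2 ± 1.23 CPM per kb (SD, n = 3), Sp2 at 13.4 ± 6.18 and Sp1 at 13.2 ± 2.08. In MEFs, Sp3 stood at 13.3 ± 2.17 CPM per kb (SD, n = 4), Sp2 at 6.98 ± 2.17 and Sp1 at 6.34 ± 1.40. Sp3 was thus highest in both cell types, and Sp1 and Sp2 did not differ from each other beyond their spread in either. Sp8 came next, at 2.03 ± 0.254 CPM per kb in mESCs and 1.96 ± 0.450 in MEFs, then Sp4 at 1.21 ± 0.689 and 0.933 ± 0.394, with Sp5 last. The libraries of Sp3 and Sp2 overlapped in mESCs, since Sp2 reached 20.5 CPM per kb in mESC Y2, and did not overlap in MEFs. Sp8 and Sp4 overlapped in both cell types, with Sp4 at up to 1.49 CPM per kb in MEFs and 1.80 in mESCs and Sp8 down to 1.37 and 1.74, although Sp8 was the higher of them within each of the 7 libraries. The libraries were primed at the 3′ end, where counts need not follow length, and with plain CPM or with coding length Sp1 came first in mESCs.

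Summed over the 6 members, the level was 158, 172, 164 and 132 CPM in MEF O1 to O4 and 247, 306 and 219 CPM in mESC Y1 to Y3. The cell types did not overlap in this sum, as was so for 52.1% of single tested genes. The mean was 1.65 times higher in mESCs, at 258 CPM against 156 in MEFs. Within it, Sp1 had means of 109 and 52.4 CPM, Sp2 of 45.9 and 23.8, and Sp3 of 84.9 and 65.7. The sum thus follows Sp1 more than any other member. The ratio of Sp1 to Sp3 per kilobase was 0.289, 0.705, 0.466 and 0.520 in MEF O1 to O4 and 0.811, 0.810 and 0.680 in mESC Y1 to Y3. MEF O2 overlapped with the mESC libraries in this ratio, and the other MEF libraries were below them.

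**Figure D4:**
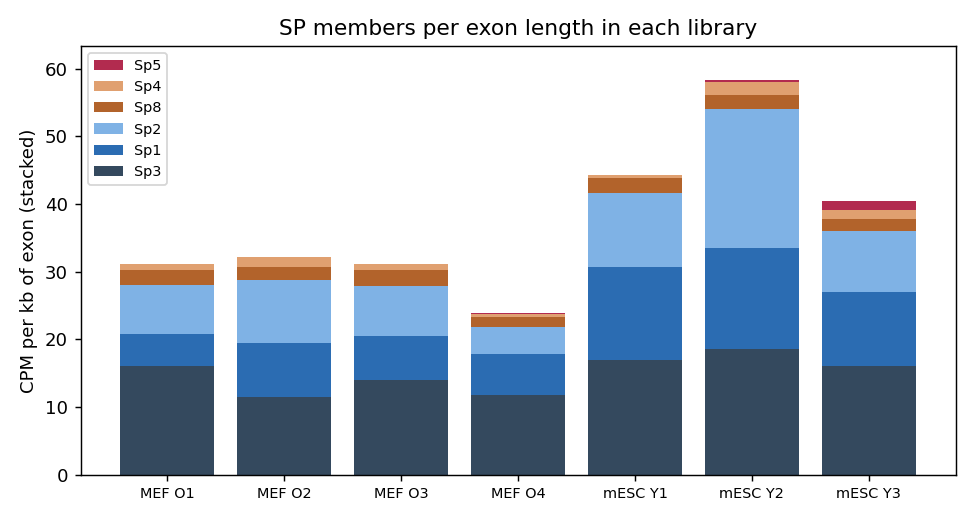
CPM per kilobase of exon, stacked over the 6 members, in each library. The sections of Sp3 run from 11.5 in MEF O2 to 18.5 in mESC Y2, those of Sp1 are all taller in the mESC libraries than in the MEF libraries, and that of Sp2 is tallest in mESC Y2 and in mESC Y3 is below MEF O2.

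Sp6, Sp7 and Sp9 did not pass the filter on low counts. Sp7, also called osterix and needed for bone formation, held 5, 31, 5 and 6 counts in MEF O1 to O4 and 5, 6 and 4 in mESC Y1 to Y3. Sp9, known from the limb ridge and from forebrain neurons, held 13, 152, 8 and 2 counts in MEFs and 3, 1 and 4 in mESCs. Both were highest in MEF O2, at 4.75 and 23.3 CPM. Sp6, a factor of tooth and skin, held at most 2 counts in any library, and 86.7% of its exon bases lie opposite to Gm11532, so reads of Sp6 cannot be assigned where strand was not used in counting.

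Overlaps were small for the 6 members. An antisense gene covers 3.69% of the exon bases of Sp2 (D030028A08Rik) and 2.21% of those of Sp3 (Sp3os). Of all 50-base sequences in their transcripts, 2.29% in Sp2 and 1.26% in Sp3 also occur in another gene, 0.279% in Sp1 and none in Sp4 or Sp8. Sp5 shares 2.15% with Sp9. Only uniquely mapped reads were counted, and how far this sharing touches the few counts of Sp5 was not tested. In mESC Y3, where Sp5 held 22 counts, Sp9 held 4.

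KLF genes encode the zinc finger factors most like SP factors, which bind similar GC-rich and CACCC sites. Of 17 KLF genes, 15 were tested, 6 were called higher and 4 lower in mESCs, and their median log2 fold change was 0.31. Over all tested genes, 22.8% were called higher and 25% lower, with a median of 0.04. Klf4, one of the factors used to reprogram fibroblasts, rose by 2.85 (SE 0.163, adjusted p = 3.12e-07 by edgeR), Klf8 by 2.73 and Klf2, a factor of naive pluripotency, by 1.98. Klf7, Klf14 and Klf6, the last an injury response factor, fell, with log2 fold changes of -3.61, -2.58 and -2.04. Each of these named KLF changes was larger in size than that of Sp1, the largest of the 5 tested SP members. They were named for being the largest called changes of their list, so this follows in part from that choice. The median was 0.31 for the tested KLF genes and 0.38 for the tested SP members. Sp5, which was not tested, is outside this comparison. Klf15 and Klf17 were too low to test, with their mESC libraries above their MEF libraries.

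Of the 19 partners and modifiers of SP factors, all were tested, and 9 were called higher and 4 lower in mESCs. Their median log2 fold change was 0.49. The called share was 68.4%, against 47.9% of all tested genes. Taf4b and Med26, parts of the general transcription machinery, rose by 2.48 and 1.84, and Rb1, the retinoblastoma protein gene, by 1.87 with overlapping libraries. Med26 held 19, 2, 8 and 3 counts in MEF O1 to O4, and its call was lost without MEF O4 or without any one of the mESC libraries (adjusted p from 0.0548 to 0.0819 by edgeR). The call of Rb1 was lost without MEF O1 (adjusted p = 0.0508) or mESC Y1 (1.34, adjusted p = 0.124). Crebbp, a histone acetyltransferase, and Nfyc, a subunit of NF-Y, fell, with log2 fold changes of -0.95 and -0.69. Nfyc lost its call in 7 of 14 alternatives, among them library totals alone (-0.40, adjusted p = 0.151 by edgeR) and leaving out MEF O1, mESC Y1 or mESC Y2. Of the other NF-Y subunits, Nfyb rose by 1.17 (adjusted p = 0.000112 by edgeR), and Nfya had a log2 fold change of 0.20 that did not pass. Differences between the subunits were not tested. Nfya and Nfyb were chosen after their values were seen.

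Of 18 genes known for GC boxes in their promoters, 3 were called higher and 11 lower in mESCs. Their median log2 fold change was -1.16. The shares over all tested genes were 22.8% higher and 25% lower, with a median of 0.04. Tert, the catalytic subunit of telomerase, rose by 2.29 on the log2 scale. Col1a2 and Col1a1, the chains of type I collagen, and Tgfbr2, a TGF-beta receptor, fell, with log2 fold changes of -7.79, -7.72 and -3.93. Both collagen genes are also in the list of fibroblast markers. Their part in the median was not tested. The list thus held calls in both directions while Sp1 was higher, and the levels of the SP members say nothing of their binding at these genes.

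Sp5 is read beside 20 genes of the WNT and beta-catenin pathway, of which 14 were tested. Of these, 3 were called higher and 5 lower in mESCs, with a median log2 fold change of -0.11. The called share was 57.1%, near the 47.9% of all tested genes. Notum and Tcf7, a feedback inhibitor and a DNA-binding factor of the pathway, rose by 3.47 and 2.24, and Cdx1 by 2.29. Nkd1, Dkk1 and Tcf7l2, a pair of inhibitors and a DNA-binding factor, fell, with log2 fold changes of -3.42, -2.46 and -1.62. Dkk1 overlapped between the cell types. Cdx1 and Dkk1 each lost their call in 3 of 14 alternatives. For Cdx1 these included leaving out mESC Y1 or Y2 (adjusted p = 0.0592 and 0.0541 by edgeR). For Dkk1 they included leaving out mESC Y2 or Y3 (adjusted p = 0.0595 and 0.0599 by edgeR). Lef1, chosen after its values were seen, held 16, 96 and 102 counts in mESC Y1 to Y3, and Y1 is the mESC library in which Sp5 was at 0. Axin2, a common WNT target also chosen after its values were seen, held 102, 43 and 52 counts there and was highest in Y1.

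**Figure D5:**
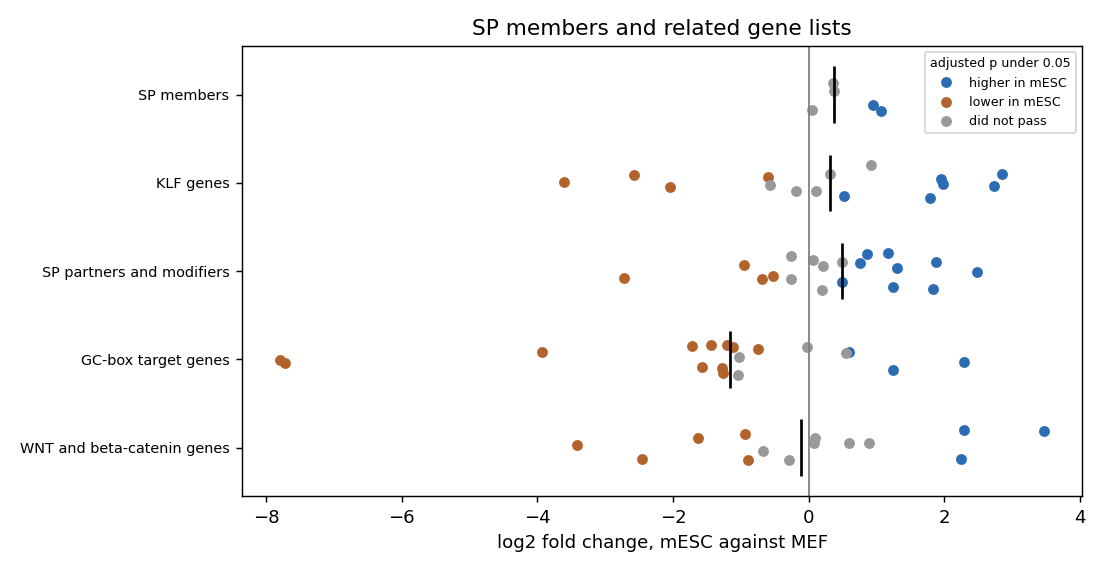
Log2 fold change of mESC against MEF (x axis) for each tested gene of the SP members and 4 related lists, with calls in colour and list medians as black lines. The 5 SP members lie between 0.05 and 1.06, and the genes of the other lists spread further to both sides.

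The genes whose level over the 7 libraries was most like that of a member were taken from 11683 genes by Pearson correlation of log2CPM. They are a description, since all libraries enter and the cell types differ. Abca7, a lipid transporter (r = 0.988), and the pseudogene Rpl35a-ps3 (r = 0.987) were closest to Sp1. Cd9, a tetraspanin (r = 0.988), and Tomm34, of mitochondrial import (r = 0.984), were closest to Sp2. Cd9 stood at 266, 499 and 209 CPM in mESC Y1 to Y3, so mESC Y2 was high in Cd9 as in Sp2. Nrf1, a factor that binds GC-rich promoter sites (r = 0.995), and Ubap2l (r = 0.980) were closest to Sp3. The levels of Nrf1 were 36.5, 23.6, 30.3 and 23.6 CPM in MEF O1 to O4 and 38.7, 42.0 and 34.3 in mESC Y1 to Y3, in the same order as Sp3. Cggbp1 (r = 0.953) and Fbxo30 (r = 0.952) were closest to Sp4, and Gm45343 (r = 0.971) and Eif4enif1 (r = 0.963) to Sp8.

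The nearest tested genes beside the members did not show a common direction. Amhr2, the receptor of anti-Müllerian hormone, 8.6 kb from Sp1, rose from 0.131 to 5.09 CPM (log2 fold change 5.16, SE 0.666, adjusted p = 0.000100 by edgeR), and Aaas on the other side rose by 0.79. Gm11532 beside Sp2 had a log2 fold change of 0.02 and did not pass. Cdca7 beside Sp3 and its relative Cdca7l beside Sp4 rose by 1.87 and 1.81, while Ola1 and Gm9267 on their other sides had 0.15 and 0.03 and did not pass. Gorasp2 beside Sp5 fell by 1.74 on the log2 scale, and Rpl9-ps7 had 0.02. Itgb8 beside Sp8 had -1.22 and did not pass.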

How the data were processed

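Per the labels and the study's methods, the RNA-seq libraries were primed at poly(A) with molecular identifiers and are biased to the 3′ end. The authors aligned reads to mm10 with STAR, collapsed identifiers with Je, used featureCounts for uniquely mapped reads over exons, and deposited whole-number counts without normalization. The annotation release and strand setting are not given in the sources used here. Library names join the cell type with the last letter and number of each column name, which the labels do not explain. A set of 26 date-like symbols held 0.249% of counts and stayed in the totals.

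Counts were tested with edgeR 4.0.16 in R 4.3.3 (TMM, filterByExpr, quasi-likelihood test, Benjamini-Hochberg over 16580 genes) on all 4 MEF and 3 mESC libraries without covariates, with DESeq2 1.42.0 as an alternative. The code was tested on simulated data. log2CPM used a prior count of 2. Single genes were also tested by exact permutation over 35 splits. The alternatives were other scalings, filters and prior counts, a test against a fold change of 2, other thresholds of the expression rule, other lengths, each library left out and a replicate block, the last chosen after seeing the data. Lists name the 3 called genes with the largest change in each direction, and each member its 2 most correlated genes (mean log2CPM of at least 2) and nearest tested neighbours. The members and gene lists were chosen with earlier results of these data known. Promoters came from RefSeq (GRCm38.p6) and gene models from GENCODE M21. The 8 marker lists covered pluripotency, fibroblasts, blood stem cells, endothelium, neural progenitors, surface ectoderm, osteoblasts and extraembryonic cells. Some genes that the rule takes are not reported here. Protein features were not analysed here, and the chromatin libraries were not used here.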

Additional observations from a re-analysis of the deposited data

Results flagged for a closer look

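Sp9 and Sp7 stood apart in the same MEF library. In MEF O2, Sp9 was at 23.3 CPM (152 counts), against 0.320 to 1.25 CPM in the other 3 MEF libraries, and the gap to the next library was 0.959 of the range of the group. Sp7 was at 4.75 CPM (31 counts) in MEF O2, against 0.482 to 0.959 CPM in the others, a gap of 0.888 of the range. Both gaps exceed Dixon's 95% critical value for 4 samples. Of 41 genes checked, 2 exceeded it, and chance gives about 1 in 20. Exons of Cir1 cover 5.35% of the exon bases of Sp9 on the other strand, and Cir1 was lowest in MEF O2, at 389 counts against 499 to 665 in the other MEF libraries. Dlx2, which like Sp9 is active in forebrain neurons, held 35 counts in MEF O2 and 11 to 20 in the other MEF libraries. The bone genes Ibsp and Bglap held 100 and 0 counts in MEF O2, against 99 to 282 and 0 in the others. What set MEF O2 apart was not tested. Without MEF O2 the log2 fold change of Sp1 was 1.196 and that of Sp2 was 1.099.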

How the results depend on the processing

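Over the 5 tested members and 14 alternatives each, Sp1 lost its call in 1 and Sp2 in 6, Sp3 gained one in 2, and Sp8 and Sp4 turned direction in 3 and 1. Over the 24 genes that the rule takes from the lists, 311 of 336 values kept direction and call and 25 lost the call. Against a fold change of 2, edgeR called 3991 of all genes (24.1%) and 0 of the members. At an unadjusted p under 0.05 by edgeR, 0 members passed as well. The calls in the lists were 2 partners and modifiers, 7 GC-box target genes, 4 WNT genes and 8 KLF genes. Library totals alone gave 3 members with a permutation p under 0.05 in place of 1. With no filter beyond 1 count, 1 of Sp6, Sp7 and Sp9 was called, namely Sp9, which was lower by 4.35 on the log2 scale in the mESC libraries and held most of its MEF counts in MEF O2. The rule with an adjusted p kept 2 members. Of the 6 ranks in mESCs, 3 were kept with plain CPM and 3 with coding length. DESeq2 called 3 members (Sp1, Sp2 and Sp5, with 39.8% of all genes), as did edgeR with no filter beyond 1 count (23.8%) and, with Sp3 in place of Sp5, with library totals alone (51.5%). Leaving out libraries gave 1 to 2 member calls, with 40.8% to 46.5% of all genes called, a log2 fold change of -0.10 to 0.14 for Sp8 and -0.032 to 0.76 for Sp4. The permutation test was not repeated with a library left out, since its smallest p is then 0.05 or 0.0667. With the replicate block, 1 member and 42.1% of all genes were called, Sp8 had -0.085, and Sp2 had 0.67 (adjusted p = 0.0593 by edgeR). Libraries with the same last number correlated at 0.004, 0.023 and 0.017 in their deviations from the group means. Not every library correlated best with its own number. No pairing by number was thus seen, but so few libraries cannot exclude one. Sp5 was under the floor of 3 counts in 5 of 7 libraries.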
